A study of Mus musculus with 135 samples.

Results

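Chemokines are small secreted or membrane-tethered proteins that steer the movement of leukocytes and other cells along their gradients. They act on G protein-coupled receptors, while atypical receptors such as Ackr1 bind them without the usual signal and take them up or hold them. In the brain, neurons carry Cx3cl1 (fractalkine), whose receptor Cx3cr1 sits on microglia, vessels and meninges make Cxcl12, and inflamed glia and endothelium release ligands such as Ccl2 and Cxcl10 that draw in blood cells.

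The genes described here are 10 genes of the chemokine system, found by symbol in count tables of 55416 genes each. There are 6 ligands (Cxcl12, Cx3cl1, Cxcl10, Ccl2, Ccl3 and Ccl4) and 4 receptors (Cxcr4, Ccr7, Ccr2 and Ackr1), and each of the 10 had a row in both tables. The libraries are bulk messenger RNA of the cerebral cortex and of the hippocampus of male Townes mice, 6 months old. Townes mice have had their own globin genes replaced by human ones, so controls and sickle mice alike are humanized: AA mice make normal adult hemoglobin and SS mice sickle hemoglobin. RSD stands for repeated social defeat, in which an aggressor mouse was placed in the home cage for 2 hours a day on 6 days. Minocycline, a tetracycline antibiotic, was given in the drinking water at 90 mg per kg from 1 day before RSD to the last day of RSD. By the paper's methods, mice then went through tests of cognition and behavior, fear conditioning with foot shocks among them. Brains were taken after this testing, so every level here was measured after both RSD and minocycline had ended.

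Without treatment there were 12 AA and 8 SS mice with a cortex library. RSD alone was given to 3 AA and 6 SS mice, and RSD and minocycline to 18 AA and 14 SS mice. Minocycline alone was given to 4 SS mice and a single AA mouse. That AA mouse entered the models and the descriptions of levels, but no comparison of groups. In the hippocampus the untreated mice were 11 AA and 7 SS, with the other groups as in the cortex. A cortex library held 16295042 to 107713193 reads on genes (median 33711634) and one of the hippocampus 12869149 to 68731008. Neuronal markers (Rbfox3, Snap25, Syt1 and Stmn2) had counts in every library, with medians of 5664 CPM (counts per 1000000 reads on genes of the library) in AA cortex and 4198 CPM in AA hippocampus, all 4 summed.

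Several libraries stood apart from the rest. Mice 5844 (AA) and 5853 (AA + RSD + minocycline) had red cell transcripts at levels near those of SS mice, and mouse 7078 (SS + RSD + minocycline) had few. Mouse 9631 had counts on mouse globin genes, the cortex of mouse 9851 differed from all other cortex libraries, and in mouse 9674, 1 of the 3 AA + RSD mice, cortex and hippocampus profiles looked exchanged. Libraries of mice 9877 and 9887 held the same counts under labels of different groups and were left out of all tests. The mice fall into 3 series of label numbers, called A, B and C here, whose meaning is not given in the sources used here. All RSD mice without minocycline belong to series A and all mice with RSD and minocycline to series B or C. Series and treatment therefore cannot be told apart in the comparisons of those groups.

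The levels of the 10 genes spanned more than 3 orders of magnitude when divided by gene length. In the cortex, Cx3cl1 was highest with a median of 182 CPM per kb of exon over 66 libraries (73.8 to 231), and its lowest library lay above the highest library of every other member. Ackr1 followed with 21.9 CPM per kb (11.5 to 40.4) and Cxcl12 with 11.4 CPM per kb (4.13 to 21.6), and their ranges overlapped. Cxcr4 came next at 0.651 CPM per kb (0.265 to 2.4), below the lowest Cxcl12 library. The other members had medians from 0.0421 CPM per kb for Ccl2 to 0.144 for Ccl3, and the ranges of these 6 genes overlapped one another, so their order does not exceed the spread between mice.

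The hippocampus had the same 4 genes at the top, in the same order. Over 64 libraries the medians were 140 CPM per kb for Cx3cl1, 20.7 for Ackr1, 11.5 for Cxcl12 and 1.71 for Cxcr4. The remaining medians ran from 0.035 CPM per kb for Ccr7 to 0.201 for Ccl3, again with overlapping ranges. In reads, the inflammatory ligands were close to the floor of the assay. Ccl2 had 0 to 21 counts per cortex library with 12 libraries at 0, and Ccl4 had 0 to 9 counts. At this depth the fold changes of these genes had wide intervals.

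**Figure D1:**
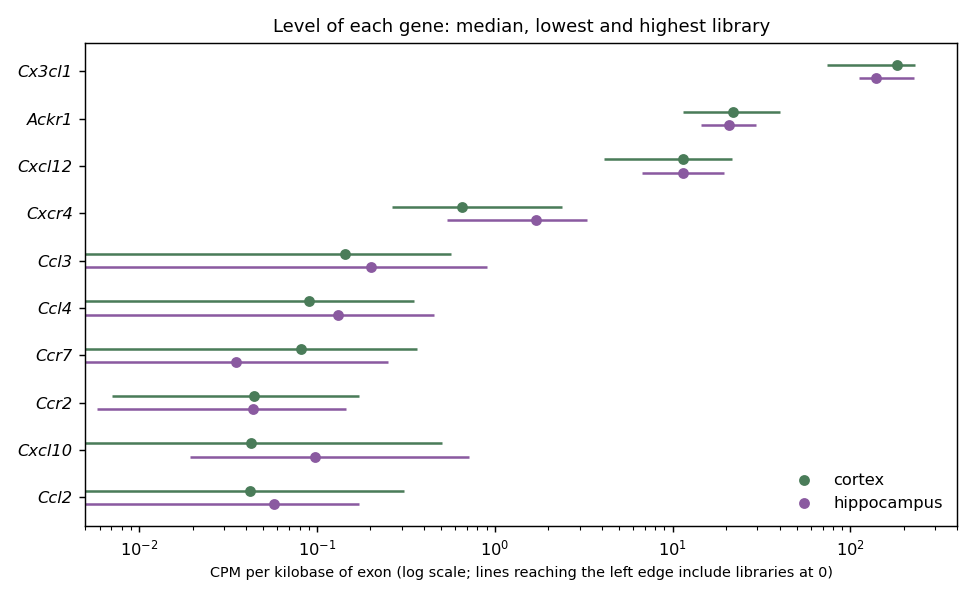
CPM per kb of exon (log axis) of the 10 chemokine genes in cortex and hippocampus, with a point at the median over 66 cortex or 64 hippocampus libraries and a line from the lowest to the highest library. Cx3cl1, Ackr1 and Cxcl12 lie above 4 CPM per kb in every library, Cxcr4 below 4, and the other 6 members below 1.

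Some of these counts are uncertain because the setting that assigns reads to a strand is not given. Of the exonic bases of Ccl3, 35.6% overlap a gene on the other strand, as do 16.2% of Ackr1, 10.8% of Cx3cl1, 6.7% of Ccr7 and 5.91% of Cxcl10. Ackr1 also shares 25.7% of its exonic bases with Cadm3, a neuronal adhesion gene on the same strand. Cadm3 had medians of 471.8 CPM in cortex and 449.6 CPM in hippocampus, against 30.81 and 29.08 CPM for Ackr1. Ackr1 is the Duffy receptor of red cells and venules, and its level here can hold reads that come from Cadm3.

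The promoters of Cxcl12 and Cxcr4, a ligand and its receptor, are shown because these genes carry the differences by genotype and by tissue described next. Cxcl12 lies on chromosome 6 from 117144945 to 117158328 on the plus strand and Cxcr4 on chromosome 1 from 128515936 to 128520044 on the minus strand (GRCm39). The sequences come from RefSeq, from a table built on GRCm38.p6, and were located in GRCm39 by an exact match, at chr6:117145246-117145495 (plus strand) for Cxcl12, inside the annotated span of the gene but outside its exons, and at chr1:128520045-128520286 (minus strand) for Cxcr4. Capitals mark GC boxes, the letters GGGCGG or their reverse complement CCGCCC, a motif bound by Sp family factors.
Cxcl12: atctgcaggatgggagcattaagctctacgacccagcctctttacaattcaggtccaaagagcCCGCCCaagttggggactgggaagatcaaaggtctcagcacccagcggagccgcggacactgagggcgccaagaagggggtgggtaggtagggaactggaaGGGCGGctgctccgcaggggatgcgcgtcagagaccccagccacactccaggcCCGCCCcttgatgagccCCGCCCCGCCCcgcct
Cxcr4: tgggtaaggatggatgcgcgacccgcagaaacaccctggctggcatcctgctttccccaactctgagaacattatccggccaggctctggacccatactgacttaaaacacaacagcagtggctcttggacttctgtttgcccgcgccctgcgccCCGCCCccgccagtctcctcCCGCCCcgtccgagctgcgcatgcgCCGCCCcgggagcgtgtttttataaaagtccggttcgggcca

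The Cxcl12 promoter holds 5 GC boxes, of which the last pair overlap, and 0 matches of TATAAA on either strand, and 64.4% of its bases are G or C. The Cxcr4 promoter holds 3 GC boxes and 2 matches of TATAAA or its reverse complement TTTATA near its end, which overlap, with 62% G or C. Over 32536 promoters of 250 bases in the same table, 33% hold at least 1 GC box, 8.54% hold 3 or more, and 12.3% hold TATAAA or TTTATA. Such matches describe the sequence and are not evidence of binding.

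Across all comparisons, 167 tests of a member gene were made and 9 passed a Benjamini-Hochberg adjusted p of 0.05 in edgeR's quasi-likelihood test, adjusted over all genes. The comparisons of SS with AA mice gave 5 of these from 54 tests, all of them Cxcl12 and all higher in SS. Those of minocycline gave 2 from 45, both Cx3cl1 and both lower, and that of cortex with hippocampus gave 2 from 5, Cx3cl1 and Cxcr4. Over all genes, the share called was 0.159% to 2.74% for genotype, 0% to 8.85% for minocycline and 61.4% between the regions. The 30 tests of RSD, the 15 of RSD under minocycline and the 18 of the interaction of genotype and RSD gave 0. At an unadjusted p under 0.05 these 3 families held 4, 0 and 0 tests, and DESeq2 called 1, 0 and 0. Of all genes, edgeR called 0.853% to 3.11% for RSD, 0% for RSD under minocycline, and 0.236% and 0.0474% for the interaction.

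The first question was which chemokine genes differ between sickle and control mice without RSD. Cxcl12, which holds Cxcr4-bearing cells in marrow and at vessel walls, was higher in SS mice in both tissues, and no other member passed the test. In the cortex, the 12 AA mice ranged from 59.27 to 144 CPM with a median of 74.04, and the 8 SS mice from 113.8 to 180.1 CPM with a median of 148.7. Only 1 AA mouse lay above the lowest SS mouse. That mouse was 5844, which had 144 CPM, and the next AA mouse had 92.24 CPM. The difference was 0.86 on the log2 scale (SE 0.14, edgeR adjusted p = 0.000203), a 1.81-fold higher level (95% interval 1.499 to 2.187).

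In the hippocampus, Cxcl12 ranged from 61.24 to 124 CPM (median 77.44) in 11 AA mice and from 117 to 161.9 CPM (median 127.4) in 7 SS mice. Again mouse 5844, at 124 CPM, was the only AA mouse within the SS range, and the next had 87.67 CPM. The difference was 0.73 (SE 0.11, edgeR adjusted p = 4.57e-05), or 1.66-fold (1.43 to 1.92). With mice of number series A alone, it was 0.77 with an adjusted p of 0.0911 (edgeR), short of the threshold. The background of called genes was 0.214% of 22926 genes in the cortex and 0.159% of 23215 in the hippocampus, and 1 of 9 tested members was called in each. The median log2 difference of the tested members was 0.02 in cortex and 0.14 in hippocampus, beside -0.00079 and 0.01 over all genes.

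**Figure D2:**
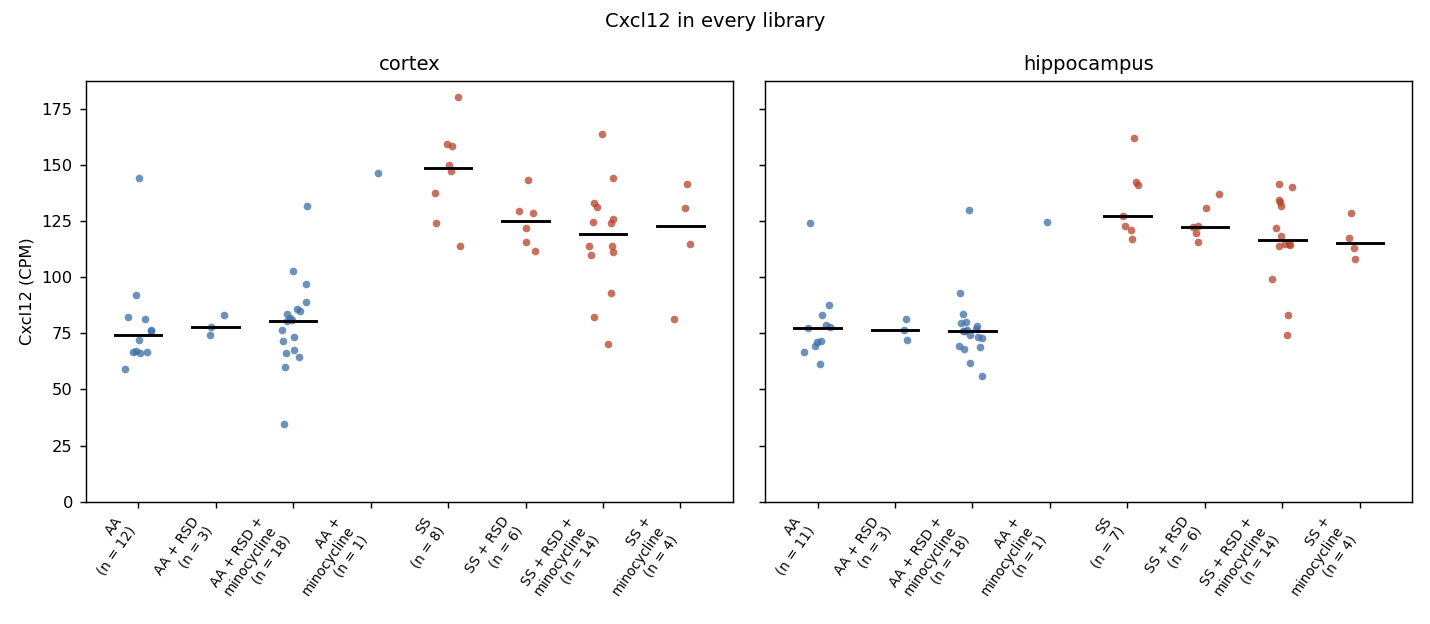
Cxcl12 level in CPM (axis from 0) in each group of cortex and hippocampus libraries, 1 point per mouse with a line at the group's median. In both tissues the medians of the untreated, RSD, and RSD and minocycline groups are higher in SS than in AA mice, and the high points among AA mice are mouse 5844 (144 and 124 CPM), mouse 5853 (131.7 and 130 CPM) and the AA + minocycline mouse.

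Mice exposed to RSD showed the same order of Cxcl12 levels. In the cortex, the 3 AA + RSD mice had 74.27, 77.62 and 82.98 CPM, and the 6 SS + RSD mice 111.8, 115.6, 121.9, 128.6, 129.4 and 143.2 CPM. The groups did not overlap, but the difference of 0.67 (SE 0.22) had an adjusted p of 0.349 (edgeR) in a model whose spread comes from all groups. With mice of series A only, it passed with 0.0383 (edgeR adjusted p). In the hippocampus, the AA + RSD mice had 72.25, 76.38 and 81.34 CPM and the SS + RSD mice 115.8, 119.8, 122.2, 122.9, 130.9 and 137.2 CPM. There the difference was 0.73 (SE 0.17, edgeR adjusted p = 0.0154), again without overlap.

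The hippocampal call rested on few AA + RSD mice. Without mouse 9643 the difference was 0.66 with an adjusted p of 0.0535, and without mouse 9674 it was 0.81 with 0.306 (edgeR). Without the 6 mice named above as standing apart, 9674 included, it was 0.81 with 0.00153 (edgeR adjusted p). The background was 0.493% of genes called in the cortex and 0.78% in the hippocampus. The interaction of genotype and RSD for Cxcl12 was -0.18 (SE 0.26) in cortex and -0.0023 (SE 0.19) in hippocampus, each with an adjusted p of 1 (edgeR), in comparisons that called 0.236% and 0.0474% of genes. The intervals of the fold change ran from 0.62 to 1.251 in cortex and from 0.766 to 1.30 in hippocampus.

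Under RSD with minocycline, Cxcl12 was also higher in SS mice. Cortex values ran from 34.45 to 131.7 CPM (median 80.71) in 18 AA mice and from 70.21 to 163.7 CPM (median 119.2) in 14 SS mice. The groups overlapped widely, and 13 of the 14 SS mice lay above the AA median. The difference was 0.53 (SE 0.11, edgeR adjusted p = 0.00399), or 1.45-fold (1.247 to 1.678). Hippocampus values ran from 56.1 to 130 CPM (median 75.99) in AA mice and from 74.21 to 141.6 CPM (median 116.7) in SS mice. There it was 0.59 (SE 0.08, edgeR adjusted p = 1.3e-06), 1.504-fold (1.348 to 1.677), and again 13 of 14 lay above the AA median. The background was 0.624% in the cortex and 2.74% in the hippocampus.

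Among libraries labelled AA, the 3 with the highest Cxcl12 were the 3 with the most red cell transcripts, in each tissue. Red cell markers were summed over Alas2, Slc4a1 and Epb42. Their summed level was 4.623 CPM at the median of AA cortex and 115 CPM at that of SS cortex. Mouse 5844 (AA) had 106.5 CPM of these markers and 144 CPM of Cxcl12 in cortex. Mouse 5853 (AA + RSD + minocycline) had 56.32 and 131.7 CPM, the highest Cxcl12 of its group. Mouse 7078 (SS + RSD + minocycline) had 7.014 CPM of the markers and 82.48 CPM of Cxcl12, among the lower values of its group. Mouse 9851 (AA + RSD + minocycline) was lowest of its group in cortex for both, with 34.45 CPM of Cxcl12 and 3.117 CPM of markers. Low Cxcl12 also occurred in mice whose red cell markers were not low for their label. Mouse 5801 (SS + RSD + minocycline) had 70.21 CPM of Cxcl12 in cortex with 107.5 CPM of markers, and mouse 9889 (SS + minocycline) 81.33 CPM with 198.9. The single AA + minocycline mouse, 10639, had 23.79 CPM of the markers and 146.5 CPM of Cxcl12 in cortex and 124.8 CPM of Cxcl12 in hippocampus. Mouse 5898 (AA + RSD + minocycline) came next in the markers among AA libraries of each tissue, but not in Cxcl12. It had 21.06 CPM of the markers and 73.52 CPM of Cxcl12 in cortex, and 13.09 and 75.82 CPM in hippocampus. Without mice 5844, 5853, 7078, 9631, 9674 and 9851, Cxcl12 remained called for SS against AA and under RSD with minocycline, in both tissues.

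Markers of vessels were also higher in untreated SS than in untreated AA mice. Endothelial markers (Pecam1, Cdh5, Cldn5, Flt1 and Tek, all 5 with counts in every library) summed to 136 to 238.1 CPM with a median of 160.2 in AA cortex and to 208.2 to 247.3 CPM with a median of 219.8 in SS cortex. The ratio of the medians was 1.37, against 2.01 for Cxcl12. In hippocampus they summed to 131.1 to 200.1 CPM (median 148.3) in AA mice and 186.1 to 276.5 CPM (median 196.8) in SS mice, a ratio of 1.33 against 1.65 for Cxcl12. Markers of venular endothelium (Selp, Sele, Vwf and Vcam1, of which at least 2 had counts in every library) differed more. Their summed medians were 44.69 CPM in AA and 102 CPM in SS cortex, and 57.98 and 119.4 CPM in hippocampus, ratios of 2.28 and 2.06. Under RSD with minocycline the SS to AA ratio of the 5 endothelial markers was 1.09 in cortex, against 1.48 for Cxcl12. In hippocampus it was 1.21 against 1.54. The same ratio of the venular markers was above that of Cxcl12 in both tissues, at 1.89 in cortex and 1.65 in hippocampus.

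Cxcl12 per endothelial transcript also differed. Divided by the summed endothelial CPM, Cxcl12 had a median of 0.443 in AA cortex (0.387 to 0.645) and 0.663 in SS cortex (0.536 to 0.74). In hippocampus the medians were 0.498 (0.438 to 0.669) and 0.618 (0.585 to 0.765). With RSD they were 0.454 and 0.533 in cortex and 0.406 and 0.555 in hippocampus, AA first. With RSD and minocycline they were 0.496 and 0.643 in cortex and 0.511 and 0.676 in hippocampus, in the same order. The ranges of untreated AA and SS mice overlapped in both tissues. These ratios are a description, and the part of endothelial and red cell transcripts in the result was not tested. In bulk tissue a different number of cells of a type and a different amount of RNA per cell cannot be told apart.

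**Figure D3:**
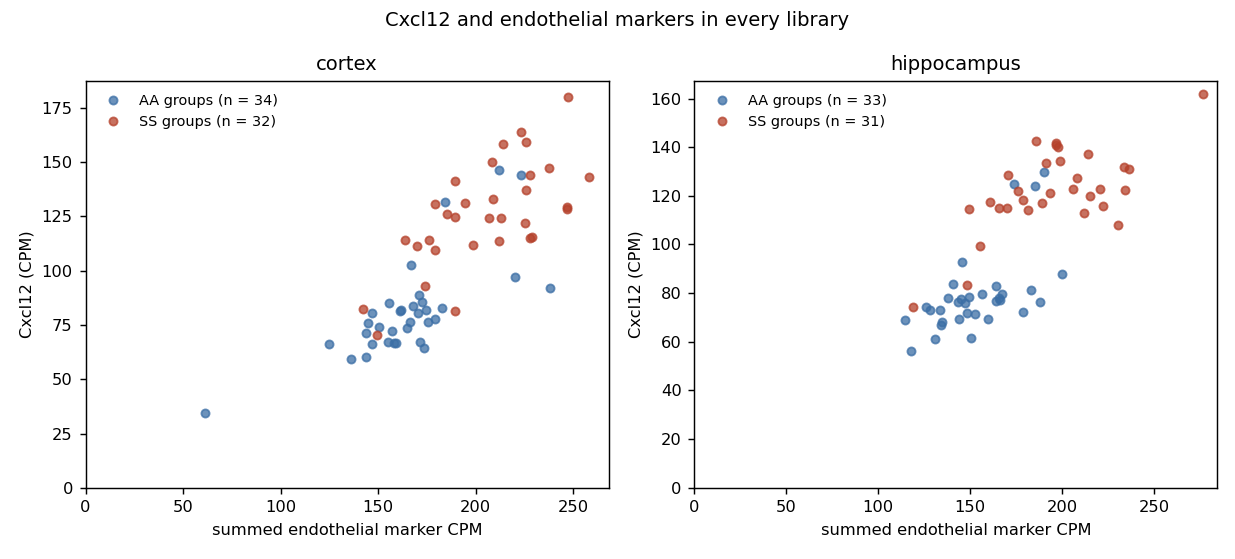
Cxcl12 in CPM against the summed CPM of 5 endothelial markers in each library of cortex and hippocampus, with AA and SS mice of all treatments in different colours. At like sums of endothelial markers most SS libraries lie above most AA libraries, and the lowest cortex point is mouse 9851 with 61.1 CPM of markers and 34.45 CPM of Cxcl12.

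No other member was called between genotypes. Cx3cl1 differed by -0.02 (SE 0.10) in cortex and -0.06 (SE 0.07) in hippocampus between SS and AA mice, with fold intervals of 0.858 to 1.13 and 0.872 to 1.06. Under RSD, Cx3cl1 gave -0.22 in hippocampus (SE 0.10, edgeR adjusted p = 0.483), which was -0.40 without mouse 9643 (edgeR adjusted p = 0.0316) and 0.06 without mouse 9674 (edgeR adjusted p = 1). Cxcr4, the receptor of Cxcl12, differed by -0.03 (SE 0.27) and -0.08 (SE 0.23), with intervals of 0.675 to 1.41 and 0.697 to 1.29. Ackr1 differed by 0.02 (SE 0.12) and 0.14 (SE 0.09), with intervals of 0.859 to 1.19 and 0.968 to 1.251. For these 3 genes the fold of Cxcl12 in the same comparison lies outside the interval.

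Ccr7, the receptor that guides dendritic cells and lymphocytes to lymphoid tissue, had 0 to 22 counts per library. In AA cortex it ranged from 0 to 0.167 CPM with a median of 0.08568, and in SS cortex from 0.138 to 0.4296 CPM with a median of 0.1937. In 6 of the 8 SS mice the level exceeded the highest AA value, and the log2 difference was 1.21 (SE 0.44, edgeR adjusted p = 0.574). Under RSD with minocycline all 14 SS mice lay above the AA median in cortex, with a difference of 1.23 (SE 0.33, edgeR adjusted p = 0.0603). DESeq2 gave that comparison an adjusted p of 0.0124, and a term for the share of reads outside genes gave 0.0372. In hippocampus the differences were 1.58 (SE 0.61, edgeR adjusted p = 0.954) without RSD and 1.15 (SE 0.47, edgeR adjusted p = 0.318) under RSD with minocycline, the latter 0.0454 without the 6 mice that stood apart. With RSD alone, Ccr7 gave 0.86 in cortex (SE 0.68, edgeR adjusted p = 1). In hippocampus the 3 AA + RSD mice had 0, 0 and 1 counts and the 6 SS + RSD mice 1, 4, 7, 9, 11 and 16 counts, or 0.04856 to 0.4964 CPM, without overlap in CPM. The fitted difference of 3.86 (SE 1.29, edgeR adjusted p = 0.164) was the largest of any member and rests on that 1 count, so it gives no fold, and it was 3.37 with an adjusted p of 1 (edgeR) without mouse 9674. B cell markers (Cd79a, Cd79b and Ms4a1) had summed medians of 0.5252 CPM in AA and 1.237 CPM in SS cortex and 0.4642 and 0.8651 CPM in hippocampus. T cell markers had 1.877 and 2.133 CPM in cortex and 0.4685 and 1.055 CPM in hippocampus, AA first. The sum of 4 markers used for dendritic cells differed little, with 24.87 and 26.67 CPM in cortex and 21.6 and 24.26 CPM in hippocampus, in the same order. These sums were far above those of the B and T cell markers, and which cells they come from was not tested. The part of any of these markers in the level of Ccr7 was not tested either.

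Ccr2, which brings monocytes out of marrow toward Ccl2, differed by 0.88 (SE 0.35, edgeR adjusted p = 0.702) in cortex and 0.70 (SE 0.39, edgeR adjusted p = 1) in hippocampus between SS and AA mice. Neither passed the test, and the hippocampal value was -0.11 within number series B. Markers of blood monocytes and neutrophils had summed medians of 0.3357 CPM in AA and 0.8213 CPM in SS cortex and of 0.2343 and 0.7123 CPM in hippocampus. Cxcl10, an interferon-induced ligand of Cxcr3, differed by 0.60 (SE 0.72) in cortex and 0.32 (SE 0.49) in hippocampus, with fold intervals of 0.569 to 4.05 and 0.639 to 2.45. Ccl3, a ligand of Ccr1, gave -0.41 in cortex, the lowest value of the tested members there. Ccl4, its neighbour on chromosome 11, was too low to be tested in cortex, as was Ccl2 in hippocampus.

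A further question was how the levels differ between the brain regions, for which 18 untreated mice (11 AA and 7 SS) had a library of each tissue, and the mouse was kept as a block. Of 17880 genes tested, 61.4% were called, so a difference between the regions is the rule here. Cxcr4 was lower in the cortex in all 18 mice. It ranged from 0.4829 to 2.004 CPM (median 1.04) in cortex and from 1.65 to 6.051 CPM (median 2.862) in hippocampus, a log2 difference of -1.44 (SE 0.11, edgeR adjusted p = 8.67e-11). Among treated mice only 9674 (3.151 CPM in cortex and 1.742 in hippocampus) and 9890 (4.375 and 3.776) went the other way.

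Tissue that borders the hippocampus differed along with Cxcr4. Choroid plexus markers (Ttr, Kl, Folr1 and Kcnj13) had summed medians of 13.81 CPM in AA and 11.22 CPM in SS cortex, and 139.2 and 116.2 CPM in hippocampus. Meningeal fibroblast markers (Col1a1, Col1a2, Dcn and Lum) had 19.69 and 24.07 CPM in cortex and 69.11 and 84.79 CPM in hippocampus. Their part in the level of Cxcr4 was not tested.

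Cx3cl1 was higher in the cortex in all 18 mice. It ranged from 709.5 to 886.9 CPM (median 793.3) in cortex and from 514.4 to 612 CPM (median 550) in hippocampus, without overlap, and the log2 difference was 0.54 (SE 0.03, edgeR adjusted p = 5.16e-14). The exceptions among treated mice were 9674 (574.8 CPM in cortex and 903.6 in hippocampus), 9851 (293.1 and 550.7) and 5801 (496 and 511.6). Summed neuronal markers were higher in the cortex as well, as given above, and their part in the result was not tested.

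Cxcl12 had nearly the same level in both regions, with a difference of 0.04 (SE 0.05, edgeR adjusted p = 0.441) and a fold interval of 0.967 to 1.10. Of the 18 mice, 9 were higher in cortex and 9 in hippocampus. Ackr1 differed by 0.12 (SE 0.05, edgeR adjusted p = 0.0651), and its neighbour Cadm3 by 0.11 (edgeR adjusted p = 0.00407). DESeq2 gave Ackr1 an adjusted p of 0.0437. Ccr2 differed by 0.12 (SE 0.20, edgeR adjusted p = 0.619). Ccr7, Ccl2, Ccl3, Ccl4 and Cxcl10 were too low to be tested, and Cxcl10 was higher in hippocampus in 15 of the 18 mice.

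**Figure D4:**
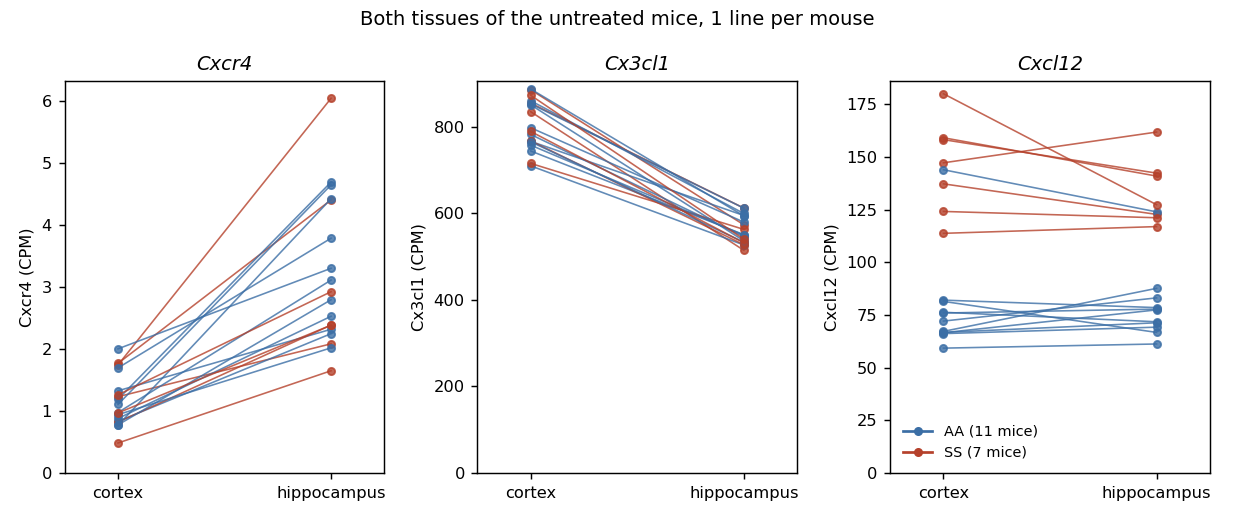
CPM (axes from 0) of Cxcr4, Cx3cl1 and Cxcl12 in cortex and hippocampus of 18 untreated mice, with a line joining the libraries of 1 mouse and colour for genotype. Lines of Cxcr4 rise and lines of Cx3cl1 fall from cortex to hippocampus in every mouse, and those of Cxcl12 go either way.

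The third question was whether RSD alters the chemokine genes, as measured after the behavioral testing that followed it. No member was called in either genotype or tissue. The background of called genes was 2.57% in SS cortex, 3.11% in SS hippocampus, 0.853% in AA cortex and 1.19% in AA hippocampus. In SS mice, the log2 differences of the tested members ran from -0.10 (Cxcl12) to 1.15 (Cxcl10) in cortex and from -0.56 (Ccl3) to 0.98 (Cxcl10) in hippocampus. Of these, 6 of 7 and 7 of 8 lay above 0, with medians of 0.37 and 0.10 beside 0.08 and 0.06 over all genes. For Cxcl10, 1 SS + RSD mouse stood far above the others in each tissue. It was mouse 5354 in cortex (0.7707 CPM, next 0.3151) and mouse 9615 in hippocampus (1.616 CPM, next 0.3691). Over the alternatives the lowest Cxcl10 difference was 0.61 in cortex and 0.01 in hippocampus. Cxcl12 gave -0.10 (SE 0.14) and 0.0053 (SE 0.11), with fold intervals of 0.773 to 1.12 and 0.863 to 1.17. All RSD mice without minocycline were of series A. Untreated SS mice were 2 of A and 6 of B in cortex, and 2 and 5 in hippocampus. Untreated AA mice were 4 and 8 in cortex, and 3 and 8 in hippocampus. RSD and series are thus partly mixed here. In untreated SS cortex the medians of series A and B were 1.756 and 0.945 CPM for Cxcr4 and 130.5 and 154.2 for Cxcl12.

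Over both genotypes, 4 tests of RSD had an unadjusted p under 0.05. Cxcr4 differed by 0.87 in AA cortex (SE 0.33, edgeR adjusted p = 0.251; 0.43 without mouse 9674, adjusted p = 0.866) and Cxcl10 by 2.08 (SE 0.81, edgeR adjusted p = 0.262). Cx3cl1 differed by 0.32 in AA hippocampus (SE 0.10, edgeR adjusted p = 0.104) and by 0.20 in SS hippocampus (SE 0.08, edgeR adjusted p = 0.187). The AA value rested on mouse 9674, whose hippocampus library had 903.6 CPM against 535.1 and 642.9 CPM in the other 2 AA + RSD mice. Without it the difference was 0.04 with an adjusted p of 0.929 (edgeR), while without mouse 9643 it was 0.49 with 0.00273 and without mouse 9646 0.39 with 0.0494.

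The fourth question was whether minocycline alters them. Among mice without RSD, no member and no gene at all passed the test between SS + minocycline and SS mice by edgeR (0% in each tissue, with 1406 genes in cortex and 449 in hippocampus at an unadjusted p under 0.05, and 0 by DESeq2 in both). With series B only, which leaves 2 SS + minocycline mice, 5225 genes were called in cortex, and 0 members. The difference in Cxcl12 was -0.25 (SE 0.16) in cortex, where the 4 SS + minocycline mice had 81.33, 114.9, 130.8 and 141.3 CPM. It was -0.12 (SE 0.13) in hippocampus, where they had 108.1, 112.9, 117.3 and 128.5 CPM. SS mice with RSD and minocycline differed from those with minocycline alone in no member, again with 0% of genes called in either tissue (816 and 998 genes at an unadjusted p under 0.05). With series B only, 4420 genes were called in cortex, Ccr2 among them (2.14, edgeR adjusted p = 0.0496). The fold intervals of Cxcl12 in that comparison were 0.784 to 1.16 and 0.837 to 1.14.

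Among SS mice with RSD, Cx3cl1 was lower with minocycline in the cortex. The 6 SS + RSD mice ranged from 711.7 to 917.9 CPM (median 847.5) and the 14 SS + RSD + minocycline mice from 496 to 783.8 CPM (median 662). Of the 14, 10 lay below every SS + RSD mouse, and the difference was -0.48 (SE 0.08, edgeR adjusted p = 0.00495), beside a background of 8.85% of genes called. All 7 tested members had a value below 0 in this comparison, with a median of -0.21 beside -0.05 over all genes. Adding the number series to the model gave Cx3cl1 a difference of -0.22 with an adjusted p of 1 (edgeR), and with the share of reads outside genes as a term it was -0.41 with 0.095. Untreated SS mice of series A had a median of 869.9 CPM (n = 2) and those of series B 778.1 CPM (n = 6). In the hippocampus Cx3cl1 differed by -0.17 (SE 0.07, edgeR adjusted p = 0.142), beside 5.96% of genes called.

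Among AA mice with RSD, Cx3cl1 was lower with minocycline in the hippocampus. The 3 AA + RSD mice had 535.1, 642.9 and 903.6 CPM and the 18 AA + RSD + minocycline mice a median of 552.9 CPM, with the lowest at 471.8 CPM and all 18 below the 2 highest AA + RSD mice. The difference was -0.35 (SE 0.09, edgeR adjusted p = 0.0334), beside 2.67% of genes called. Without mouse 9674, the one with 903.6 CPM, it was -0.07 with an adjusted p of 0.824 (edgeR), and with the number series as a term -0.17 with 0.555. In the cortex, where 3.6% of genes were called, no member passed. Cxcr4 differed there by -0.91 (SE 0.31, edgeR adjusted p = 0.0769), or -0.47 without mouse 9674 (edgeR adjusted p = 0.588), and Cxcl10 by -1.78 (SE 0.76, edgeR adjusted p = 0.143). Cxcl12 gave -0.03 (SE 0.22) in cortex and 0.0048 (SE 0.16) in hippocampus.

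**Figure D5:**
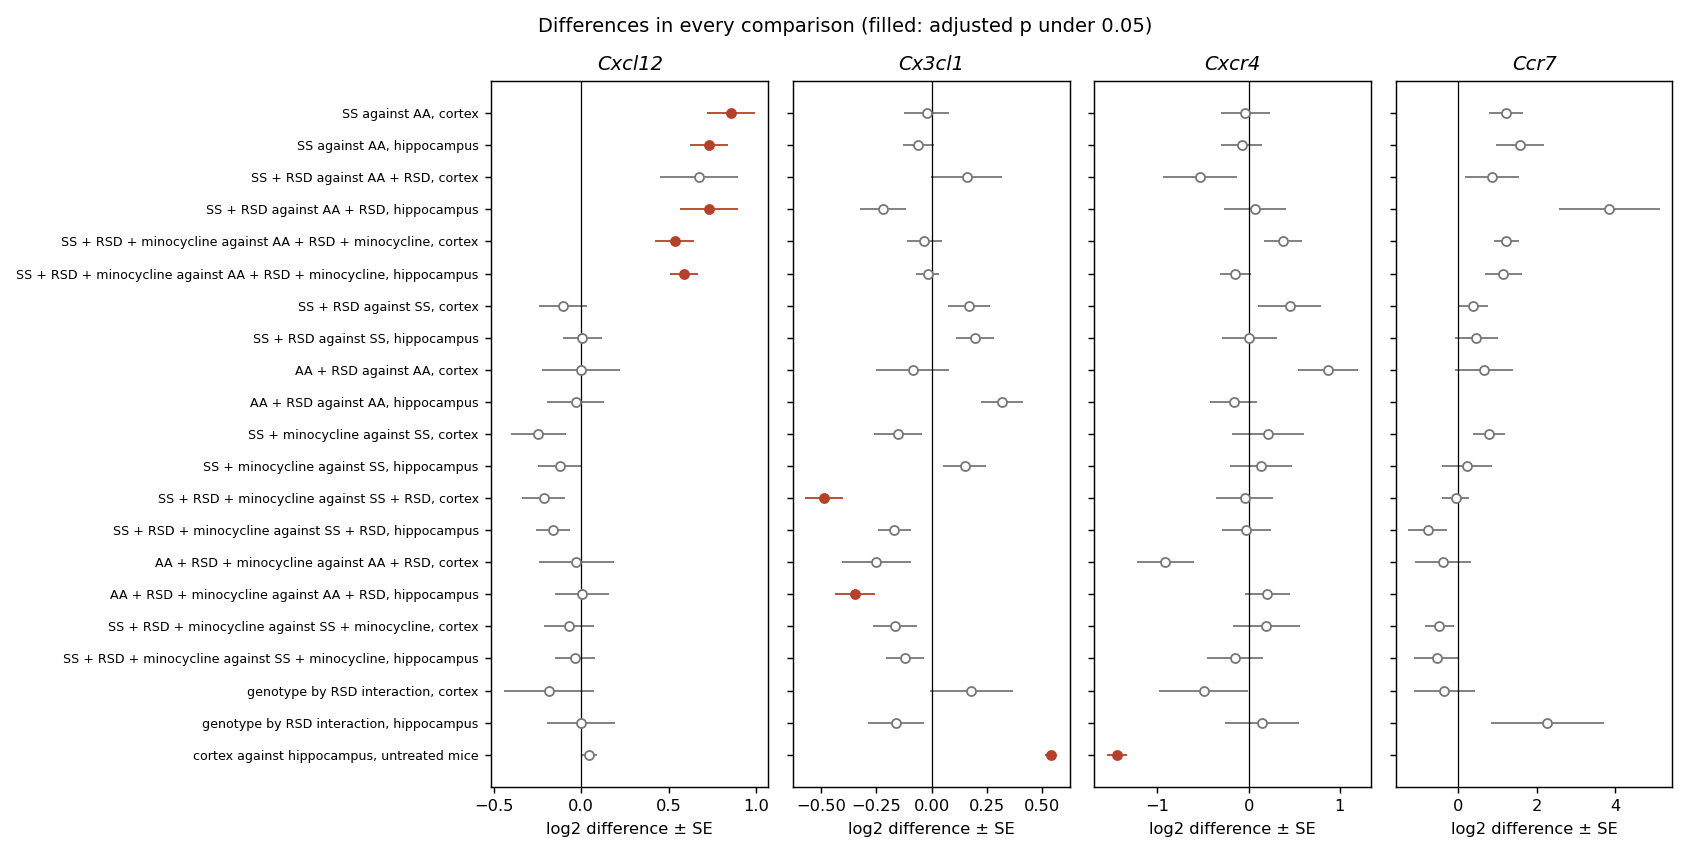
Log2 differences of Cxcl12, Cx3cl1, Cxcr4 and Ccr7 in the comparisons of genotype, RSD, minocycline, interaction and tissue, with bars of 1 SE and filled points for an edgeR adjusted p under 0.05. Cxcl12 is filled in 5 of the 6 genotype comparisons, Cx3cl1 in 2 minocycline comparisons, and Cx3cl1 and Cxcr4 for cortex against hippocampus.

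The rest of the chemokine system was counted in a list of 52 further ligands and receptors, of which 16 to 34 were high enough to be tested in a comparison. Between SS and AA mice, 0 of 33 in cortex and 0 of 34 in hippocampus were called, with medians of 0.15 and 0.38. Cxcr2, the neutrophil receptor for Cxcl1 and its relatives, was higher in SS mice under RSD with minocycline in the hippocampus, by 2.14 (edgeR adjusted p = 0.0231) at 0 to 19 counts per library, with a DESeq2 adjusted p of 0.0506. It was the only one of 34 called in that comparison, beside 2.74% of all genes, and the other 5 genotype comparisons called 0.

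Ccl25, the thymic and gut ligand of Ccr9, was lower in SS mice with RSD. Its median was 9.626 CPM in SS, 6.306 in SS + RSD and 10.29 in SS + RSD + minocycline cortex, and 10.59, 5.948 and 10.62 CPM in hippocampus. The difference of SS + RSD from SS mice was -0.61 in cortex (edgeR adjusted p = 0.0472) and -0.71 in hippocampus (edgeR adjusted p = 0.041). That of SS + RSD + minocycline from SS + RSD mice was 0.61 in each tissue (edgeR adjusted p = 0.016 and 0.0289). With the number series as a term these values were -0.13, -0.31, 0.01 and 0.03, none of them called. The RSD difference also fell short when any of mice 5354, 5391, 9615, 9616 and 9621 was left out, with edgeR adjusted p of 0.0593 to 0.0922 in cortex and 0.0718 to 0.107 in hippocampus. Cx3cr1, the microglial receptor of Cx3cl1, was lower in SS hippocampus with RSD and minocycline than with RSD alone, by -0.38 (edgeR adjusted p = 0.0269), and by -0.08 with the number series as a term (edgeR adjusted p = 0.869).

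In AA mice with RSD, 3 further genes were lower with minocycline, 2 of 26 tested in cortex and 1 of 25 in hippocampus. Over all genes, 3.6% and 2.67% were called. The differences were -2.75 for Ackr4 (edgeR adjusted p = 0.0132) and -2.09 for Ccl9 (edgeR adjusted p = 0.0171) in cortex, and -0.92 for Ackr2 (edgeR adjusted p = 0.0263) in hippocampus. Mouse 9674 held 0.741 CPM of Ackr4 and 5.04 CPM of Ccl9 in its cortex library and 5.62 CPM of Ackr2 in its hippocampus library. Without it Ccl9 gave 0.02, Ackr2 gave 0.16, and Ackr4 was too low to be tested. Between the regions, 4 of 16 were higher and 7 lower in cortex, in a comparison that called 61.4% of all genes. Ccl27a, a ligand of Ccr10, was higher by 1.07 (edgeR adjusted p = 1.0e-17), the scavenging receptor Ackr2 was higher by 1.67 (edgeR adjusted p = 4.6e-16), and Ackr3, a scavenger of Cxcl12, was lower, at -0.62 (edgeR adjusted p = 2.0e-08).

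The genes whose levels followed those of the members most closely were sought by Spearman correlation of log2 CPM after subtraction of group means, over 66 cortex and 64 hippocampus libraries. These are descriptions over libraries that also share depth and dissection. For Cxcl12 they were Flt1 (0.802), Ets1 (0.791) and Kdr (0.705) in cortex and Eng (0.702), Flt1 (0.653) and Gper1 (0.613) in hippocampus. Flt1 is 1 of the 5 endothelial markers used above, and Kdr is the main VEGF receptor of endothelium. For Cx3cl1 they were Tmem198 (0.866), Lingo1 (0.852) and Syt13 (0.846) in cortex and Dmtn (0.829), Ubqln4 (0.742) and Tmem151a (0.735) in hippocampus.

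Cxcr4 went with different genes in each region. In cortex these were Lrrc10b (0.659), the dopamine receptor Drd2 (0.641) and Syndig1l (0.637), which are abundant in the striatum. In hippocampus they were Lgals3 (0.81), Pdpn (0.806) and Rarres2 (0.796), of which Pdpn marks meninges and other linings. For Ackr1, Neurl1a (0.688), Asic4 (0.666) and Krt77 (0.662) came first in cortex and Commd4 (0.737), Tor2a (0.717) and Ranbp3 (0.708) in hippocampus, and its correlation with the overlapping Cadm3 was 0.454 and 0.354. For Ccr2 the first were Angpt2 (0.631), Clec12a (0.617) and Gm43691 (0.571) in cortex and Slc26a7 (0.629), Bmp5 (0.585) and Tnfaip8 (0.543) in hippocampus. Between members, Cxcl12 and its receptor Cxcr4 had correlations of 0.236 in cortex and -0.117 in hippocampus, and Cxcl12 and Cx3cl1 of -0.0432 and 0.437.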

How the data were processed

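The authors aligned single reads of 85 bases from strand-specific polyA libraries to GRCm39 with STAR and deposited the raw counts per GENCODE gene of each tissue, without normalization. The version of STAR, the annotation release and the strand setting of the counting are not given in the sources used here. Lines of the tables that name no gene stayed out of library sizes and tests. Groups came from the labels. Not used were 1 library whose labels name different tissues and 3 columns without a matching sample, and 2 libraries per tissue with identical counts were left out.

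The tests were run on the counts with edgeR 4.0.16 in R 4.3.3 (filterByExpr by group with a minimum count of 10 and a minimum total count of 15, TMM, glmQLFit and glmQLFTest), with Benjamini-Hochberg adjustment over all genes tested and a threshold of 0.05. RSD and minocycline were compared in a model of all groups of a genotype, as in the paper's methods, and genotypes and the interaction in a model of all groups of a tissue. Regions were compared with the mouse as a block, since the labels give both libraries of a mouse the same number. CPM are counts per 1000000 reads on genes, without TMM. Fold intervals are 95% intervals from the SE. Each mouse is 1 replicate, and the number of mice and, for genes of few counts, the depth set the precision. The code was tested on simulated counts. Alternatives were RLE size factors, the DESeq2 1.42.0 Wald test, no filter, number series or share of reads outside genes as a term, 1 number series or genotype only, only the groups compared, and leaving out mice.

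The named genes were all 10 members, up to 3 further chemokine genes per comparison by adjusted p among those called, and the 3 genes closest to each member with a median count of at least 10 (prior count 2). Members and lists were chosen with earlier results of these data known. Some genes of the lists are not reported here, and 2 marker genes were left out of the summed marker levels.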

Additional observations from a re-analysis of the deposited data

Results flagged for a closer look

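In each group of 4 to 10 mice the highest and lowest value of each member was compared with the others by Dixon's ratio. These were the SS, SS + RSD and SS + minocycline groups, so no AA group entered. Of 60 sets of values, 11 had a mouse farther from the rest than the 95% limit. About 1 in 20 sets of normally distributed values pass that limit. Genes of few counts do not have such values, so that rate does not hold for them. The number flagged therefore cannot be judged against chance. All 11 were high values of genes with few counts, except that of Ackr1. In SS + RSD cortex, mouse 5354 was highest for Ccr7 (0.7225 CPM, the next mouse 0.2961), Ccl2 (0.289 CPM, next 0.1113) and Cxcl10 (0.7707 CPM, next 0.3151). Mouse 9621 was highest there for Ccr2 (1.169 CPM, next 0.4989) and Ackr1 (46.19 CPM, next 34.71). In SS cortex, mouse 5854 was highest for Ccr7 (0.4296 CPM, next 0.2491) and Ccl4 (0.1841 CPM, next 0.04982).

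Further single mice stood out for Cxcl10 and Ccl4. Cxcl10 reached 1.616 CPM, or 74 counts, in the hippocampus of SS + RSD mouse 9615 (next 0.3691), 0.6297 CPM in that of SS mouse 5349 (next 0.3114) and 0.4789 CPM in the cortex of SS + minocycline mouse 9888 (next 0.07717). Ccl4 reached 0.1109 CPM in the hippocampus of SS + minocycline mouse 7121 (next 0.04224). No value of Cxcl12, Cx3cl1 or Cxcr4 stood out in this way in these groups.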

How the results depend on the processing

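Of 293 counts of called members under an alternative, 275 equalled the count reported. Cxcl12 in SS against AA cortex, and under RSD with minocycline in both tissues, was called under every alternative run. With number series A only, 0 members were called for SS against AA in hippocampus and 1 for SS + RSD against AA + RSD in cortex (Cxcl12). With series B only, 1 was called for SS + RSD + minocycline against SS + minocycline in cortex (Ccr2, 2.14), and Ccr2 gave -0.111 for SS against AA in hippocampus. Under RSD with minocycline, SS against AA gave 2 calls in cortex by DESeq2 and 2 with the share of reads outside genes as a term, and 2 in hippocampus without mice 5844, 5853, 7078, 9631, 9674 and 9851, a choice made after the data were seen. DESeq2 called 1 member for AA + RSD against AA in hippocampus. For SS + RSD + minocycline against SS + RSD in cortex, the number series or the share of reads outside genes as a term left 0. For AA + RSD + minocycline against AA + RSD in hippocampus, 0 were called without a filter, with either term, with only the groups compared, and without the 6 mice.

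Leaving out each AA + RSD mouse in turn gave 0 to 1 calls in hippocampus for SS + RSD against AA + RSD, AA + RSD against AA and AA + RSD + minocycline against AA + RSD. Over the same settings Cx3cl1 ranged from -0.395 to 0.0632 for SS + RSD against AA + RSD in hippocampus, and was 0.0632 without the 6 mice. For AA + RSD + minocycline against AA + RSD, Ccl9 ranged from -2.56 to 0.0183 in cortex and was 0.0755 without the 6 mice, and Ackr2 ranged from -1.27 to 0.162 in hippocampus and was 0.172 without them. These reversals came with the removal of mouse 9674, and the other causes were not tested. The comparison of cortex with hippocampus kept the mouse as a block. Without the replicate block, 2 members were called, with Cxcr4 at -1.46 and Cx3cl1 at 0.54. Over all genes, 127 of 293 counts lay more than 1.5 times from that reported, with 14 to 265 (reported 49) for SS against AA in cortex and 10 to 50 (reported 37) in hippocampus. Genes of few counts, Ccl2, Ccl3, Ccl4, Ccr7 and Cxcl10, are limited by depth.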
